A study of Homo sapiens with 12 samples.

Results

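The 54 genes described here encode the cyclins, kinases, spindle and kinetochore proteins, motors and ubiquitin enzymes that carry a cell from the entry into mitosis through cytokinesis. They were chosen by name, as rows of the count table whose Ensembl identifier maps to 54 listed symbols, a rule that uses no measured value. The list itself was drawn up with earlier results of these data known, so it is no independent support. The table held 63241 genes, of which 23593 had enough counts to be tested, and all 54 members were among those tested. The members are protein-coding genes on 18 chromosomes, with 1286 to 12807 exonic bases (median 4313) in GENCODE 29 on GRCh38.

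RNA came from HCT116, a human colorectal carcinoma line, in 4 groups of 3 libraries. The controls were wild-type cells given DMSO for 8 h. The POLR1A group was the POLR1A-AID1 line, in which the largest subunit of RNA polymerase I carries an auxin-inducible degron, given 500 µM IAA for 8 h after 1 µg/ml doxycycline from 24 h before, which induces the OsTIR1 receptor. The POLR2A group was the POLR2A-AID2 line, with a degron on the largest subunit of RNA polymerase II, given 1 µM 5-Ph-IAA for 8 h. The actinomycin D group was wild-type cells given 5 µg/mL of that DNA-binding inhibitor of transcription for 6 h. The extraction text gives 6 h as the harvest time, without saying for which groups. Neither degron line has an untreated library, so the line, its inducer and its ligand cannot be told apart from the loss of the polymerase, and whether each line is a single clone is not given in the sources used here. Replicates were dishes treated separately on the same day and described as technical, so the p-values reflect nothing beyond dish-to-dish spread. "Depleted" below names the treatment as labelled, since RNA counts do not measure the protein.

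Entry into mitosis is driven by CDK1 bound to cyclin B. The kinases WEE1 and PKMYT1 hold CDK1 in check by phosphorylation, and CDC25 phosphatases release it. Kinetochores then attach chromosomes to the spindle, the assembly checkpoint delays anaphase until every pair is attached, and CDC20 activates the anaphase-promoting complex, which marks securin and cyclin B for destruction. The genes for these proteins are transcribed mostly in G2, when B-MYB and FOXM1 join the MuvB core complex, and they are repressed in quiescent or p53-activated cells by the DREAM complex, which also contains MuvB. MuvB binds the cell cycle genes homology region (CHR), with the core TTTGAA, and NF-Y binds the CCAAT box that often lies just upstream of it.

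Promoter sequences of 4 members are shown because these genes share both elements and yet took different courses in the 3 treatments. CCNF had the deepest fall under actinomycin D. CDC20 fell in both degron lines, ASPM rose after POLR1A depletion and fell with the other treatments, and KIF4A was called higher in each comparison with the controls, by a small margin after POLR2A depletion. The stretches are read 5′ to 3′ on the gene's own strand from RefSeq (GRCh38.p14), with CCAAT or its reverse complement ATTGG and TTTGAA or its reverse complement TTCAAA in capitals. They lie at chr16:2429327-2429393 on the plus strand for CCNF, chr1:43358861-43358954 plus for CDC20, chr1:197146695-197146789 minus for ASPM and chrX:70289984-70290089 plus for KIF4A. Each stretch ends upstream of the first annotated exon, at positions -54, -27, -26 and -15 from the RefSeq start, respectively.
CCNF: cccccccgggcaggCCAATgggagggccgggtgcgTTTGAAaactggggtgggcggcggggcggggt
CDC20: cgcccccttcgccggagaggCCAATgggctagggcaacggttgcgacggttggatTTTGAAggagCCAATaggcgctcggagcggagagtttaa
ASPM: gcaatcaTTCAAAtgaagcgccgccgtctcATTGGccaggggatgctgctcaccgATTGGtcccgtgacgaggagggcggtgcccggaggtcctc
KIF4A: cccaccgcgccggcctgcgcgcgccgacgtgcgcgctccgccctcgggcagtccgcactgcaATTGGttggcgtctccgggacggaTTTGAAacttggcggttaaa

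In these stretches the CCAAT box of CCNF began at position -106 and its TTTGAA at -85, counted with the start site as 1 and the base before it as -1. The CDC20 promoter had CCAAT at -100 and -55 around a TTTGAA at -65. ASPM had both elements as their reverse complements, ATTGG at -90 and -65 and TTCAAA at -113, and KIF4A had ATTGG at -58 and TTTGAA at -34. Windows from 250 bases before to 50 bases after the start were in the RefSeq table for 46 of the 54 members, and the other 8 (BUB3, BIRC5, RACGAP1, AURKA, TPX2, UBE2C, FOXM1 and TTK) were not analysed here. Searched on both strands, CCAAT stood in the windows of 38 members (82.6%), against 39.7% of 27303 genes in the table. TTTGAA stood in those of 32 members (69.6%), against 18.2% of genes. A single window held both for 26 members (56.5%), against 7.26% of genes. Over all windows of the members 86 CCAAT and 47 TTTGAA matches were counted, and in 2 cases a CCAAT match overlapped a TTTGAA match. Genes with overlapping windows, such as AURKB, PTTG1 and CDC25C, had the same site counted in each window. A match is a stretch of letters and was not tested for binding. The plot of positions shows where along the window the matches began.

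**Figure D1:**
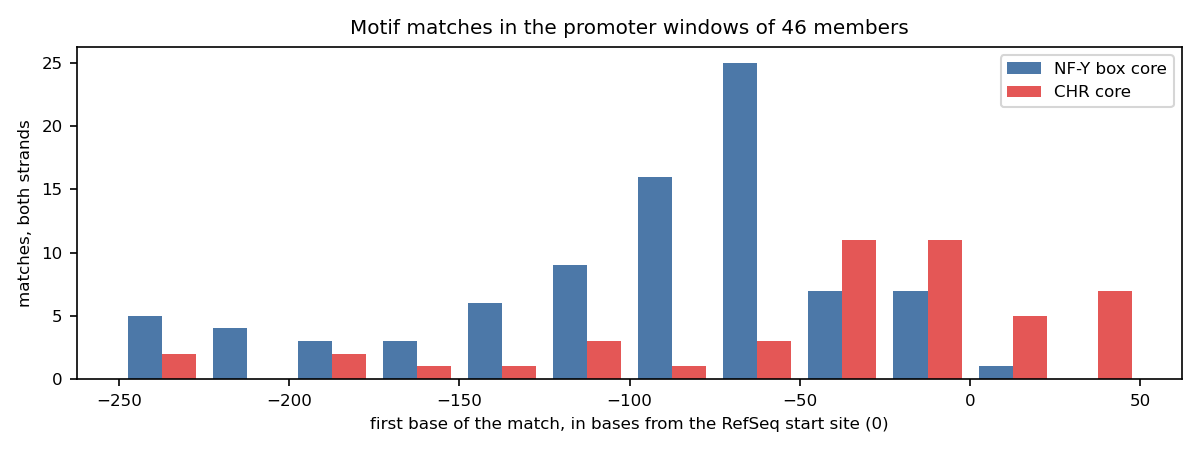
Number of matches to the NF-Y box core and the CHR core on either strand (y axis) in the RefSeq windows of 46 members, in bins of 25 bases by distance of the first base from the start site (x axis). Matches were counted per window, so a site in overlapping windows of the same gene appears more than once. The tallest bin of the NF-Y box, with 25 matches, covers the bases from -75 to -50, and the CHR core has 11 matches in each of the bins from -50 to -25 and from -25 to 0.

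Library totals ran from 12235119 to 17535790 estimated counts in the controls, 18797087 to 21802364 after POLR1A depletion, 11289272 to 15037531 after POLR2A depletion and 20302228 to 27394059 under actinomycin D. Levels are given as CPM, library-scaled counts after TMM, a method that lines up the bulk of genes between libraries. The members took 0.564% to 0.743% of all counts. Their summed level was 6356 to 7104 CPM in the controls, 7238 to 7288 after POLR1A depletion, 5118 to 5439 after POLR2A depletion and 6990.2 to 7020.1 under actinomycin D. The 3 POLR2A libraries were below every other library in this sum. In a bulk sample, fewer cells in mitosis and less RNA per mitotic cell cannot be told apart. The degron targets were measured as RNA only, and a degron acts on the protein: POLR1A stood at 145 to 151 CPM in its own degron line and 229.8 to 249 in the controls, and POLR2A at 1073 to 1110.4 CPM in its line and 468 to 561 in the controls. Neither change was particular to its line: POLR1A stood at 128 to 142 CPM after POLR2A depletion, and POLR2A at 908 to 945 CPM after POLR1A depletion. Per kilobase of exon, CDC20 was the most abundant member in the controls at 97.9 ± 6.44 CPM per kb (SD, n = 3), followed by UBE2C at 82.4 ± 5.97 and CCNB1 at 82.2 ± 7.44. CDC25C was the lowest at 2.85 ± 0.143 CPM per kb, below SPC24 at 6 ± 0.197.

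After POLR1A depletion, 25 of the 54 members were called higher than the controls and 10 lower, at an adjusted p under 0.05 in edgeR's quasi-likelihood test with Benjamini-Hochberg adjustment over all genes. The mitotic phosphatase gene CDC25C rose most, by 1.11 on the log2 scale, and the B-MYB gene MYBL2 fell most, to a log2 fold change of -0.56. Of all genes tested, 20.6% were called higher and 18.6% lower in this comparison. Among the 8940 genes within the members' range of average log2 CPM (3.80 to 9.74), 35.7% were called higher and 31.1% lower, so the 25 members called higher lie above that background and the 10 called lower are under it. The members' median log2 fold change was 0.13, beside 0.01 over all genes and 0.04 over the genes in that range. Without single libraries the counts ranged from 22 to 28 higher and from 9 to 11 lower.

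After POLR2A depletion, 37 members were called lower and 7 higher. The checkpoint genes BUB1B and TTK and the kinesins KIF20B and KIF15 fell by more than 2-fold, as did the centriole kinase PLK4. All genes tested had 28.2% called lower and 33.2% higher, and genes in the members' level range 52.4% lower and 22.3% higher. The median of the members was -0.32, against 0.08 over all genes and -0.23 over the genes in range. The 5 members that fell at least 2-fold stand beside 9.64% of all genes that did so. Called or not, 12.4% of the genes in range and 9.26% of the members had a log2 fold change of -1.0 or less. The count of 7 higher moved with single libraries: it was 4 without control replicate 1 and 4 without POLR2A replicate 3, while the count of lower members ranged from 34 to 42 without single libraries.

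Under actinomycin D, 26 members were called higher and 17 lower. Cyclin F (CCNF) fell furthest, to a log2 fold change of -2.65, followed by NDC80 at -1.11, while SPC24, a partner of NDC80 in the same complex, rose by 0.95. All genes tested had 24.9% called higher and 28.5% lower, and genes in the members' level range 46.3% higher and 34.3% lower, which is close to the members' own shares. The median of the members was 0.14, against -0.06 over all genes and 0.13 over the genes in range. CCNF and NDC80 were the 2 members that fell at least 2-fold, and 17% of all genes did so. Called or not, 12.2% of the genes in range and 3.7% of the members had a log2 fold change of -1.0 or less.

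**Figure D2:**
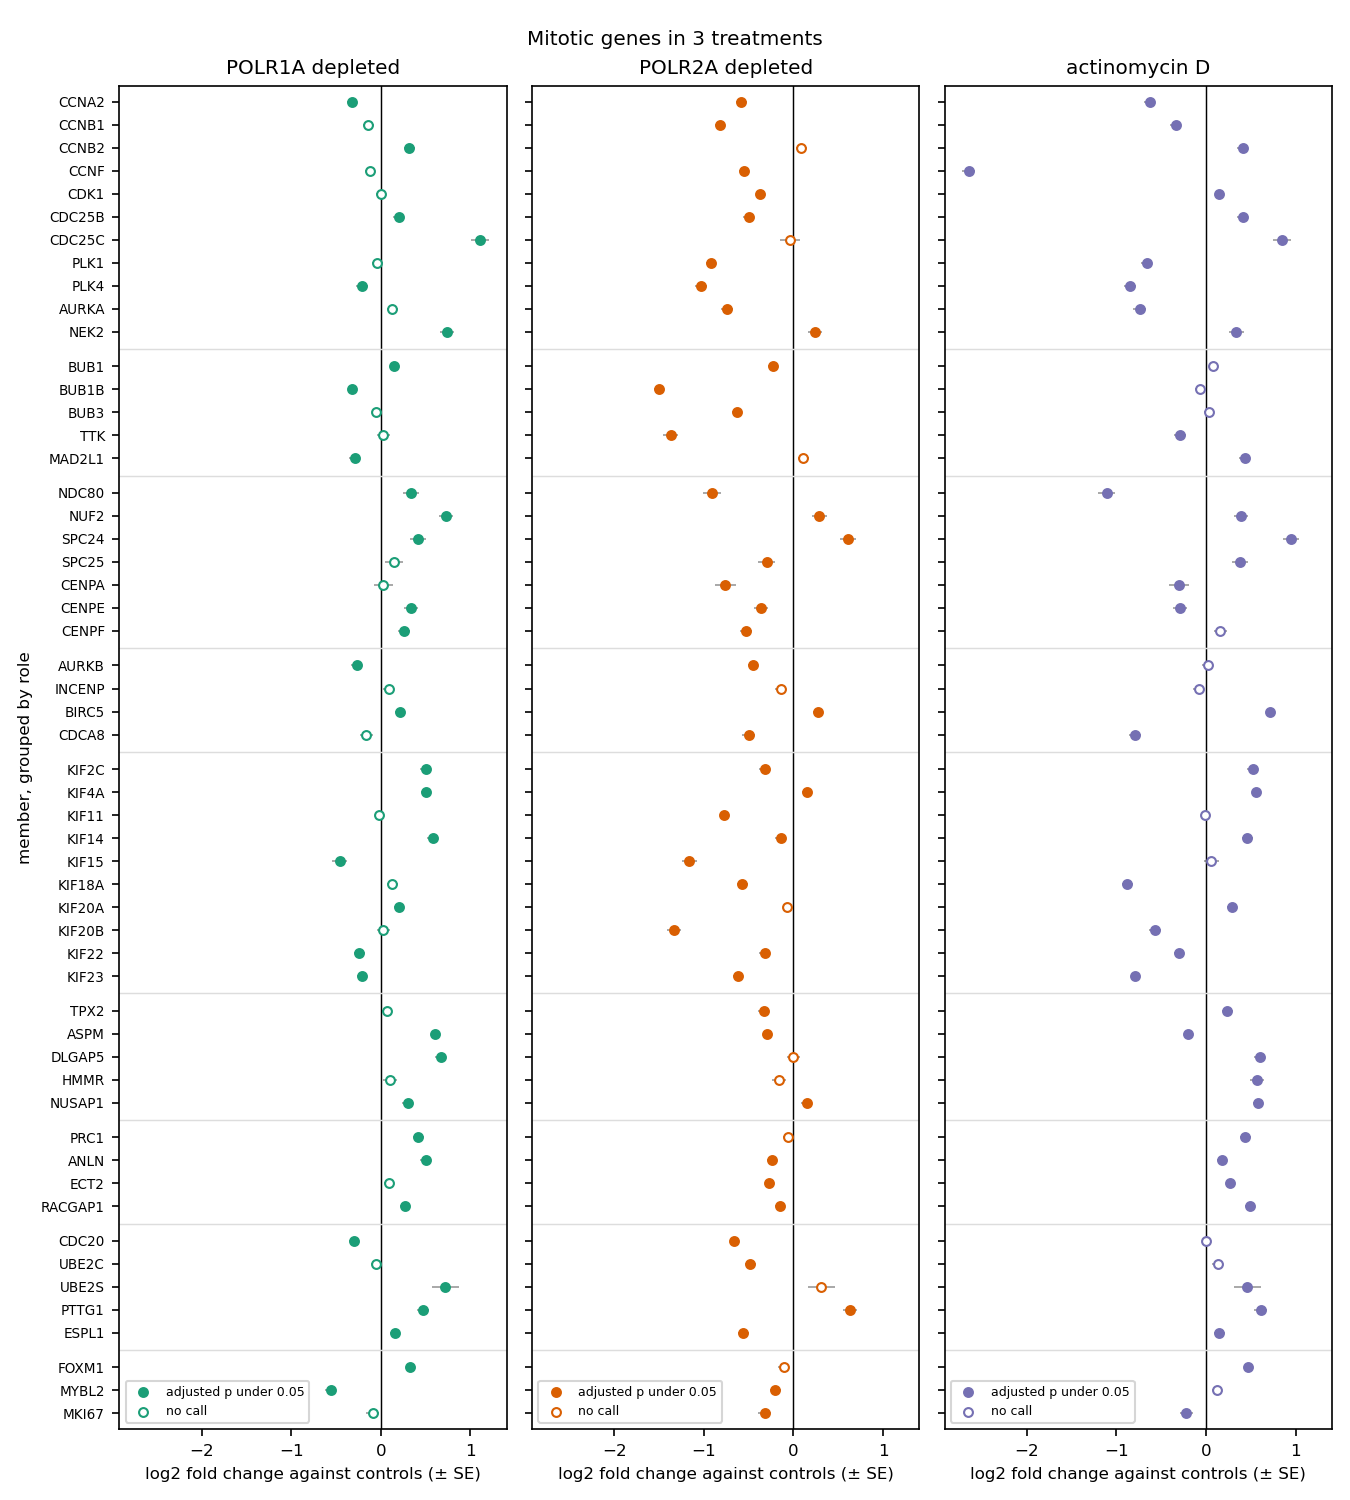
Log2 fold change against the controls (x axis, ± SE) of each of the 54 members (y axis, grouped by role) after POLR1A depletion, after POLR2A depletion and under actinomycin D, under TMM scaling; filled points have an adjusted p under 0.05. Most filled points lie right of 0 in the first panel and left of 0 in the second, and in the third CCNF stands apart at -2.65.

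**Figure D3:**
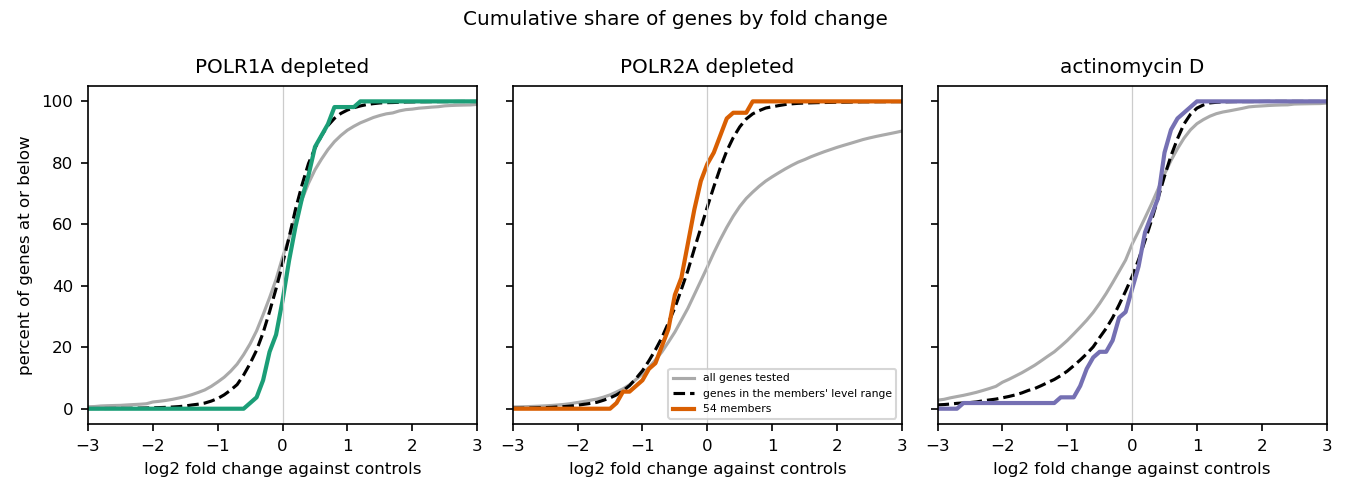
Percent of genes (y axis) at or below a log2 fold change (x axis) for all 23593 genes tested, for the 8940 genes in the members' range of levels and for the 54 members, in each treatment under TMM scaling. The members' curve lies to the left of both others at the centre of the POLR2A panel and close to the curve of genes in range under actinomycin D.

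These directions rest on TMM scaling, which takes the bulk of genes as the reference. Scaled to the 13 mitochondrial mRNAs, which are transcribed by another polymerase, the median of all genes became 0.37 after POLR1A depletion, -0.20 after POLR2A depletion and 0.82 under actinomycin D. The members then counted 35 higher and 0 lower after POLR1A depletion, 1 higher and 42 lower after POLR2A depletion, and 45 higher and 1 lower under actinomycin D. A change of reference shifts all genes in a comparison by nearly the same amount. The members' median relative to that of all genes was thus nearly fixed in advance and does not test the reference. It went from 0.12 to 0.12, from -0.40 to -0.41 and from 0.20 to 0.22. Mitochondrial mRNAs took 6.06% to 8.17% of counts in the controls, 5.58% to 5.98% after POLR1A depletion, 8.68% to 10.4% after POLR2A depletion and 3.42% to 3.54% under actinomycin D. Among members called under TMM, the direction flipped on that scale after POLR1A depletion for CCNA2, PLK4, BUB1B, MAD2L1, AURKB, KIF22, KIF23 and CDC20, and after POLR2A depletion for NEK2, BIRC5, KIF4A and NUSAP1. Under actinomycin D it flipped for CCNA2, CCNB1, PLK1, PLK4, AURKA, TTK, CENPA, CENPE, CDCA8, KIF18A, KIF20B, KIF22, KIF23, ASPM and MKI67. The 8 members that flipped after POLR1A depletion and the 4 after POLR2A depletion had no call on that scale. Of those that flipped under actinomycin D, 7 had no call and 8 were called higher. CCNF was the member still called lower under actinomycin D on that scale, at -1.74, and PTTG1 the member still called higher after POLR2A depletion, at 0.36. Scaled to library totals alone the counts were 28 higher and 9 lower after POLR1A depletion, 10 and 31 after POLR2A depletion, and 22 and 20 under actinomycin D. Which reference is right for a cell that has lost a polymerase or was given actinomycin D was not tested. Actinomycin D binds DNA, and whether it also lowered the mitochondrial mRNAs used as that reference was not tested. The values below are all on the TMM scale.

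Among the 11 cyclins and kinases of mitotic entry, 4 were called higher and 2 lower after POLR1A depletion, 1 higher and 8 lower after POLR2A depletion, and 5 higher and 6 lower under actinomycin D. Genes in the members' level range had 35.7% called higher and 31.1% lower after POLR1A depletion. The shares were 22.3% and 52.4% after POLR2A depletion, and 46.3% and 34.3% under actinomycin D. These shares stand beside the counts of every role below, and no role was tested against them. CCNB1 encodes cyclin B1, the activating partner of CDK1, and measured 193, 231 and 207 CPM in the controls, 192, 191 and 191 after POLR1A depletion, 118, 120.4 and 120.2 after POLR2A depletion and 172, 160.4 and 165 under actinomycin D. The POLR2A libraries were the lowest of all, with no overlap with the controls, at a log2 fold change of -0.82 (SE 0.06), and the actinomycin D libraries were also all below the controls, at -0.34 (SE 0.06). After POLR1A depletion the libraries lay just below the controls with no call, at -0.14 (edgeR adjusted p = 0.0607). There CCNB1 was called lower without control replicate 1 (-0.19) and with DESeq2 or its size factors (-0.16 each). CDK1 itself measured 138, 147 and 139.7 CPM in the controls, 145, 137 and 142 after POLR1A depletion, 111, 109 and 109 after POLR2A depletion and 161, 152 and 159.9 under actinomycin D. Its POLR2A libraries were again below all others, at -0.37 (SE 0.05), its POLR1A libraries overlapped the controls, and its actinomycin D libraries were slightly above them, at 0.15 (SE 0.05). The actinomycin D call of CDK1 was lost on library totals (0.03) and with only the groups compared fitted (0.11).

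CCNF, cyclin F, is a substrate receptor of an SCF ubiquitin ligase rather than an activator of a CDK, and it measured 102, 112 and 98.9 CPM in the controls, 95.3, 97.2 and 95.6 after POLR1A depletion, 71.4, 73.4 and 68.5 after POLR2A depletion and 18, 16 and 15.9 under actinomycin D. The actinomycin D libraries formed a group far below all others, with a log2 fold change of -2.65 (SE 0.07) and an edgeR adjusted p of 3.48e-18. The POLR2A libraries lay between them and the controls, at -0.55. CCNA2, which encodes cyclin A2 of S and G2 phase, measured 129.7, 149 and 139 CPM in the controls, 116, 109.6 and 109 after POLR1A depletion, 96.3, 87.7 and 95.6 after POLR2A depletion and 88.8, 90.1 and 91.6 under actinomycin D. It was called lower in all 3 comparisons, at -0.32, -0.58 and -0.63 in that order, with every treated library below every control, and the 3 comparisons share those controls.

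CDC25C, a phosphatase that removes the inhibitory phosphates from CDK1, measured 9.13, 9.35 and 10 CPM in the controls, 20.5, 19.9 and 21.1 after POLR1A depletion, 9.52, 9.6 and 8.71 after POLR2A depletion and 17.4, 16.9 and 17.3 under actinomycin D. It rose most after POLR1A depletion, at 1.11 (SE 0.10) (edgeR adjusted p = 5.99e-09), rose under actinomycin D, at 0.85 (SE 0.10), and overlapped the controls after POLR2A depletion. The gene overlaps FAM53C on the opposite strand, and no source here states whether reads were counted by strand, so its value carries that uncertainty. CDC25B, a related phosphatase, was called higher after POLR1A depletion at 0.20, a call lost without control replicate 3 at 0.15, lower after POLR2A depletion at -0.50 and higher under actinomycin D at 0.41. CCNB2, the second B-type cyclin, was called higher after POLR1A depletion at 0.32 and under actinomycin D at 0.41, and had no call after POLR2A depletion. On library totals it was called higher after POLR2A depletion, at 0.21.

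PLK1, the polo kinase that promotes CDK1 activation and later cytokinesis, measured 141, 169 and 144 CPM in the controls, 146, 145 and 150.3 after POLR1A depletion, 79.9, 83 and 76.5 after POLR2A depletion and 96.1, 91.6 and 99.5 under actinomycin D. Levels fell after POLR2A depletion, at -0.92 (SE 0.06), and under actinomycin D, at -0.66 (SE 0.06), and overlapped the controls after POLR1A depletion. AURKA, the Aurora kinase of centrosomes and spindle poles, measured 69, 77.1 and 69 CPM in the controls, 76.5, 81.4 and 77.6 after POLR1A depletion, 40.2, 43.7 and 44.9 after POLR2A depletion and 40.3, 42.7 and 45.7 under actinomycin D. Its POLR2A and actinomycin D libraries overlapped each other and were below every control, both at -0.74, and after POLR1A depletion the value was 0.13 with no call, though it was called higher at 0.20 without control replicate 2. PLK4, which starts centriole duplication, measured 51.2, 58.2 and 58.9 CPM in the controls, 50, 49 and 46.6 after POLR1A depletion, 25.6, 28.4 and 28.7 after POLR2A depletion and 32.1, 31.3 and 30 under actinomycin D. It fell most after POLR2A depletion, at -1.03 (SE 0.07), and was lower, at -0.85, under actinomycin D. Its smaller difference after POLR1A depletion, -0.21, was lost on leaving out control replicate 2 or 3 (-0.18 and -0.17) or POLR1A replicate 2 or 3 (-0.21 and -0.18). NEK2, a kinase that separates centrosomes, went the other way and measured 25.9, 29.6 and 29.8 CPM in the controls, 48.3, 49.2 and 45.9 after POLR1A depletion, 32.2, 32.9 and 35.8 after POLR2A depletion and 35.2, 34.6 and 38.7 under actinomycin D. All treated libraries were above the controls, most of all after POLR1A depletion at 0.74 (SE 0.08), and the call after POLR2A depletion (0.24) was lost without control replicate 1, at 0.16, and without POLR2A replicate 3, at 0.18.

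**Figure D4:**
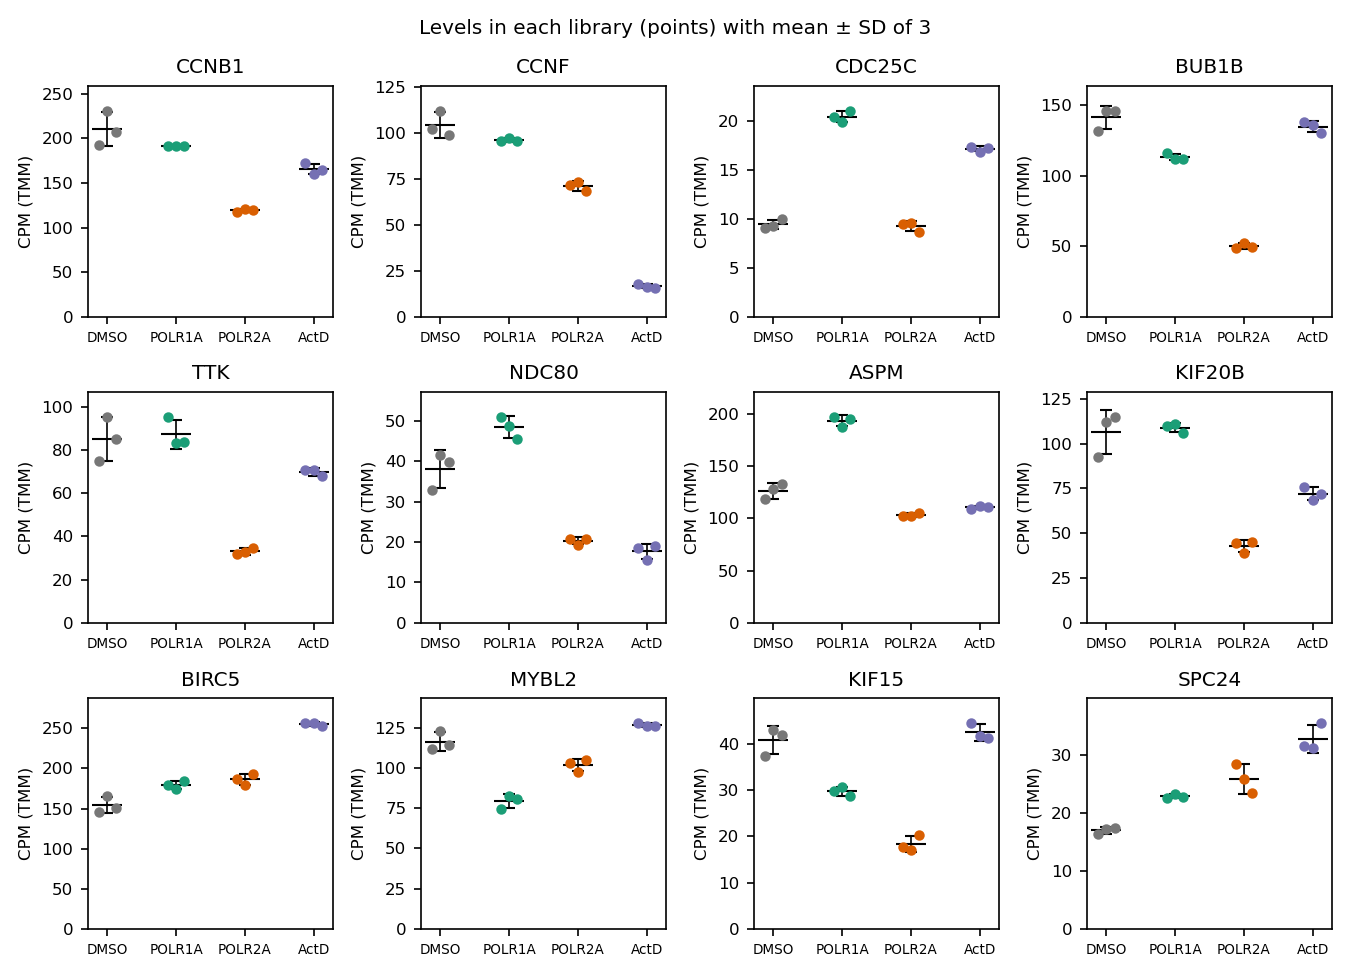
TMM-scaled CPM (y axis, from 0) of 12 members in each library (points, 3 per group), with the mean and SD as bars, for DMSO controls, POLR1A depletion, POLR2A depletion and actinomycin D (x axis). The POLR2A points of BUB1B, TTK, KIF20B and KIF15 lie far below the other groups, and those of CCNF and NDC80 under actinomycin D lie at the bottom of their panels.

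The 5 genes of the spindle assembly checkpoint counted 1 higher and 2 lower after POLR1A depletion, 0 higher and 4 lower after POLR2A depletion, and 1 higher and 1 lower under actinomycin D. BUB1B encodes BUBR1, a component of the mitotic checkpoint complex that restrains CDC20, and measured 132, 146 and 146 CPM in the controls, 116, 112 and 112 after POLR1A depletion, 48.5, 52.4 and 49.2 after POLR2A depletion and 138, 136 and 130.4 under actinomycin D. The POLR2A libraries were far below every other library, at -1.50 (SE 0.06) (edgeR adjusted p = 4.37e-15), the lowest value of any member in that comparison. After POLR1A depletion the difference was smaller but every library was below the controls, at -0.32 (SE 0.05), and under actinomycin D the libraries overlapped the controls. TTK, the MPS1 kinase that starts checkpoint signalling, measured 74.7, 95.3 and 85.1 CPM in the controls, 95, 83.2 and 83.5 after POLR1A depletion, 31.9, 32.6 and 34.7 after POLR2A depletion and 70.5, 70.9 and 67.9 under actinomycin D. Its POLR2A libraries were separated from all others, at -1.37 (SE 0.08), its actinomycin D libraries were below the controls by less, at -0.29 (SE 0.07), and its POLR1A libraries overlapped the controls.

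BUB1, a kinase at the same kinetochore platform, measured 142, 157 and 147 CPM in the controls, 168, 166 and 162 after POLR1A depletion, 135, 124 and 122 after POLR2A depletion and 162, 155 and 156 under actinomycin D. It was lower after POLR2A depletion, at -0.23 (SE 0.05), and overlapped the controls under actinomycin D, where it was called higher at 0.13 without control replicate 2. On library totals BUB1 lost its POLR2A call, at -0.11. Its call of 0.15 after POLR1A depletion was lost without control replicate 1 (0.12) or 3 (0.15) and without POLR1A replicate 1 (0.14) or 2 (0.15). MAD2L1, the MAD2 protein that binds CDC20 directly, behaved differently and measured 122, 129.8 and 118 CPM in the controls, 104, 99.3 and 99.1 after POLR1A depletion, 139, 131 and 129.7 after POLR2A depletion and 174, 152 and 172 under actinomycin D. It was lower after POLR1A depletion, at -0.29 (SE 0.06), higher under actinomycin D, at 0.43 (SE 0.06), and had no call after POLR2A depletion. After POLR2A depletion it was called higher with DESeq2 or its size factors (0.16 each) and on library totals (0.23). BUB3, a scaffold of the same complex, was called lower after POLR2A depletion, at -0.63, and had no call in the other comparisons.

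Of the 7 kinetochore and centromere genes, 5 were called higher and 0 lower after POLR1A depletion, 2 higher and 5 lower after POLR2A depletion, and 3 higher and 3 lower under actinomycin D. NDC80, NUF2, SPC24 and SPC25 encode the 4 subunits of the NDC80 complex, which holds microtubule ends, and their RNAs did not move together. NDC80 measured 32.8, 41.6 and 39.7 CPM in the controls, 51, 48.6 and 45.6 after POLR1A depletion, 20.8, 19.3 and 20.8 after POLR2A depletion and 18.5, 15.5 and 19.1 under actinomycin D. It was above the controls after POLR1A depletion, at 0.34 (SE 0.09), and below them after POLR2A depletion, at -0.91 (SE 0.10), and under actinomycin D, at -1.11 (SE 0.09). NUF2 measured 25.1, 28.3 and 26.8 CPM in the controls, 43.6, 44.5 and 44.8 after POLR1A depletion, 35.7, 32.1 and 30.5 after POLR2A depletion and 37.4, 32.2 and 35.5 under actinomycin D. All its treated libraries were above the controls, at 0.73, 0.29 and 0.39 in that order. SPC24 measured 16.4, 17.2 and 17.5 CPM in the controls, 22.6, 23.3 and 22.8 after POLR1A depletion, 28.5, 25.8 and 23.4 after POLR2A depletion and 31.6, 31.3 and 35.6 under actinomycin D. It too was above the controls throughout, and most under actinomycin D, at 0.95 (SE 0.09). SPC25 was called lower after POLR2A depletion at -0.30, with libraries that overlapped the controls and a call that was lost without control replicate 2 (-0.25) or POLR2A replicate 2 (-0.26), and higher under actinomycin D at 0.38. The POLR2A call of SPC25 was also lost on library totals (-0.17) and with the DESeq2 Wald test (-0.25). Under actinomycin D the NDC80 subunit fell while its 3 partners were called higher.

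CENPF, a large kinetochore protein of G2 and mitosis, measured 249, 301 and 317 CPM in the controls, 332, 351 and 351 after POLR1A depletion, 203, 183 and 216 after POLR2A depletion and 319, 324 and 328 under actinomycin D. It was above every control after POLR1A depletion, at 0.26 (SE 0.07), and below every control after POLR2A depletion, at -0.53 (SE 0.07). Under actinomycin D it had no call (0.16), and was called higher at 0.25 without control replicate 3. CENPE, the kinetochore-bound kinesin, was called higher after POLR1A depletion at 0.34 and lower after POLR2A depletion at -0.36, and its call of -0.29 under actinomycin D was lost without control replicate 3, at -0.17. CENPA, the histone H3 variant of centromeres, was called lower after POLR2A depletion at -0.76 and under actinomycin D at -0.30, and the second call was lost without control replicate 1 (-0.23) or 2 (-0.27) and without actinomycin D replicate 1 (-0.26) or 2 (-0.25).

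The 4 genes of the chromosomal passenger complex encode a kinase, a scaffold and 2 localising subunits that correct faulty attachments. They split in every treatment: 1 higher and 1 lower after POLR1A depletion, 1 and 2 after POLR2A depletion, 1 and 1 under actinomycin D. BIRC5, survivin, measured 146, 166 and 151 CPM in the controls, 179, 175 and 184 after POLR1A depletion, 187, 179.7 and 193 after POLR2A depletion and 257, 257 and 253 under actinomycin D. Every treated library was above every control, with the actinomycin D libraries highest, at 0.72 (SE 0.05), and values of 0.21 and 0.27 in the POLR1A and POLR2A groups. CDCA8, borealin, measured 73.9, 82.5 and 74.5 CPM in the controls, 69.7, 68.6 and 68.3 after POLR1A depletion, 54.1, 50.4 and 59.8 after POLR2A depletion and 47.5, 44.6 and 41.4 under actinomycin D. It fell under actinomycin D, at -0.79 (SE 0.07), and after POLR2A depletion, at -0.50 (SE 0.07), so the RNAs of survivin and borealin, which bind each other in the complex, moved in opposite directions. AURKB, the kinase, measured 64.7, 63.4 and 59.3 CPM in the controls, 50.3, 53.5 and 51.6 after POLR1A depletion, 47.2, 44.4 and 45.9 after POLR2A depletion and 64.3, 62.1 and 63.5 under actinomycin D. It was below the controls in both degron lines, at -0.27 and -0.45, and overlapped them under actinomycin D. INCENP, the scaffold, was the member without a call in any comparison with the controls, at 0.09, -0.14 and -0.08, though it was called at 0.16 after POLR1A depletion without control replicate 2, and at -0.18, -0.20 and -0.17 after POLR2A depletion without control replicate 1, control replicate 3 and POLR2A replicate 3.

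Among the 10 kinesins, motors that build the spindle, move chromosomes or organise the midzone, 4 were called higher and 3 lower after POLR1A depletion, 1 higher and 8 lower after POLR2A depletion, and 4 higher and 4 lower under actinomycin D. KIF20B, a motor of the midbody, measured 92.4, 112 and 115 CPM in the controls, 109.8, 111 and 106 after POLR1A depletion, 44.3, 38.9 and 44.9 after POLR2A depletion and 75.6, 68.4 and 71.9 under actinomycin D. Its POLR2A libraries were far below all others, at -1.33 (SE 0.08), its actinomycin D libraries lay between, at -0.57 (SE 0.07), and its POLR1A libraries overlapped the controls. KIF15, which backs up KIF11 in keeping spindle poles apart, measured 37.4, 43.1 and 41.9 CPM in the controls, 29.8, 30.7 and 28.8 after POLR1A depletion, 17.7, 17.1 and 20.4 after POLR2A depletion and 44.6, 41.7 and 41.3 under actinomycin D. It was below the controls in both degron lines, at -0.46 (SE 0.08) and -1.16 (SE 0.08), and overlapped them under actinomycin D. KIF11 itself, the motor that separates the poles, was called lower after POLR2A depletion, at -0.77, and had no call elsewhere.

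KIF18A, which shortens and steadies microtubules at kinetochores, measured 69, 79.1 and 78.2 CPM in the controls, 80.9, 86.3 and 80.7 after POLR1A depletion, 50.6, 50 and 52.1 after POLR2A depletion and 40.1, 40.6 and 42 under actinomycin D. It was lowest under actinomycin D, at -0.88 (SE 0.06), and also lower after POLR2A depletion, at -0.57, and had no call after POLR1A depletion, at 0.13. It was called higher there without control replicate 2 (0.18), on library totals (0.18) and on mitochondrial mRNAs (0.49). KIF14, which acts in cytokinesis, measured 65.2, 69.3 and 65.4 CPM in the controls, 99.4, 101 and 97.9 after POLR1A depletion, 57, 65.2 and 59.5 after POLR2A depletion and 89.4, 93.3 and 91.2 under actinomycin D. It was above the controls after POLR1A depletion, at 0.58 (SE 0.06), and under actinomycin D, at 0.46, and after POLR2A depletion the libraries were below the controls, the nearest by a margin lost in rounding, and the call of -0.14 was lost without control replicate 2 (-0.12), POLR2A replicate 1 (-0.10) or POLR2A replicate 3 (-0.14). That call was also lost on library totals (-0.01), with DESeq2 or its size factors (-0.09 each) and with only the groups compared fitted (-0.12). KIF4A, the chromokinesin that shapes the midzone with PRC1, measured 70.3, 72.6 and 72.1 CPM in the controls, 101, 100 and 104 after POLR1A depletion, 81.5, 74.8 and 82.3 after POLR2A depletion and 107, 105 and 105 under actinomycin D. Its POLR1A and actinomycin D libraries were clearly above the controls, at 0.50 (SE 0.05) and 0.56 (SE 0.05), and its call of 0.15 after POLR2A depletion was lost without control replicate 1 (0.11) or 3 (0.13) and without POLR2A replicate 1 (0.12) or 3 (0.11). Of the other 4 motors, KIF2C was called higher at 0.50, lower at -0.32 and higher at 0.52 in the order POLR1A, POLR2A and actinomycin D. KIF22 and KIF23 were called lower in each comparison, at -0.24, -0.32 and -0.30 for KIF22 and -0.21, -0.62 and -0.79 for KIF23. KIF20A was called higher at 0.20 after POLR1A depletion and 0.29 under actinomycin D, and had no call after POLR2A depletion, at -0.07. It was called lower there without control replicate 1 (-0.13), without the count filter (-0.18) and on mitochondrial mRNAs (-0.36).

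The 5 spindle assembly factors counted 3 higher and 0 lower after POLR1A depletion, 1 higher and 2 lower after POLR2A depletion, and 4 higher and 1 lower under actinomycin D. ASPM, which works at spindle poles and is mutated in inherited microcephaly, measured 118, 128 and 133 CPM in the controls, 197, 187 and 195 after POLR1A depletion, 102, 102 and 105 after POLR2A depletion and 109, 112 and 110.3 under actinomycin D. Its POLR1A libraries were above every other library, at 0.61 (SE 0.05), and its POLR2A and actinomycin D libraries were below every control, at -0.29 (SE 0.05) and -0.20 (SE 0.05). DLGAP5, a microtubule-binding factor downstream of AURKA, measured 64.9, 79.1 and 73.9 CPM in the controls, 117, 117 and 113 after POLR1A depletion, 77.5, 68.6 and 72.4 after POLR2A depletion and 114, 111 and 107 under actinomycin D. It was higher after POLR1A depletion, at 0.67 (SE 0.06), and under actinomycin D, at 0.60 (SE 0.06), and its POLR2A libraries overlapped the controls. NUSAP1, a microtubule bundler, measured 106, 116 and 113 CPM in the controls, 138, 141 and 135 after POLR1A depletion, 137, 114 and 121 after POLR2A depletion and 169, 162 and 170.4 under actinomycin D. Its POLR1A and actinomycin D libraries were above every control, at 0.30 and 0.58, while its POLR2A libraries overlapped the controls and the call of 0.15 was lost without control replicate 1 (0.09) or 3 (0.14) and without POLR2A replicate 1 (0.06) or 3 (0.15). TPX2, the activator of AURKA, measured 246, 286 and 274 CPM in the controls, 290.3, 276 and 278 after POLR1A depletion, 217, 207 and 219 after POLR2A depletion and 320, 329 and 302 under actinomycin D. It was lower after POLR2A depletion, at -0.33 (SE 0.06), higher under actinomycin D, at 0.24 (SE 0.06), and overlapped the controls after POLR1A depletion. HMMR was called higher under actinomycin D, at 0.57, and had no call after POLR2A depletion, at -0.16. It was called lower there without control replicate 1 (-0.22), without POLR2A replicate 3 (-0.25), with a replicate block (-0.17), without the count filter (-0.27) and on mitochondrial mRNAs (-0.46).

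All 4 cytokinesis genes were called higher under actinomycin D, and 3 were called higher and 0 lower after POLR1A depletion. Of the genes in the level range, 46.3% and 35.7% were called higher in these comparisons. On library totals, 3 cytokinesis genes were called higher under actinomycin D and 4 after POLR1A depletion. After POLR2A depletion the same role counted 0 higher and 3 lower, by small margins between -0.27 and -0.15. On library totals it counted 0 higher and 1 lower there. ANLN, anillin, the scaffold of the contractile ring, measured 221, 275 and 269 CPM in the controls, 368, 369 and 341 after POLR1A depletion, 213, 213 and 221 after POLR2A depletion and 292, 292 and 285 under actinomycin D. Its POLR1A libraries were the highest, at 0.50 (SE 0.06), its POLR2A libraries were below the controls, at -0.24 (SE 0.06), the nearest of them by a margin lost in rounding, and its call of 0.18 under actinomycin D was lost without control replicate 1, at 0.10. On library totals ANLN lost its POLR2A call, at -0.12, and its actinomycin D call, at 0.07. ECT2, the exchange factor that activates RhoA at the furrow, measured 166, 186 and 177 CPM in the controls, 191, 187 and 188 after POLR1A depletion, 151, 140 and 149.6 after POLR2A depletion and 222, 209 and 209 under actinomycin D. It was lower after POLR2A depletion, at -0.27 (SE 0.05), and higher under actinomycin D, at 0.27 (SE 0.05), and had no call after POLR1A depletion, at 0.09. It was called higher there without control replicate 2 (0.15), on library totals (0.14) and on mitochondrial mRNAs (0.45). RACGAP1, the partner of KIF23 in centralspindlin, measured 109, 129 and 115 CPM in the controls, 146, 142 and 137 after POLR1A depletion, 102, 108 and 107 after POLR2A depletion and 169, 160.3 and 168 under actinomycin D. It was above the controls after POLR1A depletion, at 0.27, and under actinomycin D, at 0.49 (SE 0.06), and its call of -0.15 after POLR2A depletion was lost without control replicate 2 (-0.10) or POLR2A replicate 1 (-0.14). That call was also lost on library totals (-0.03), with DESeq2 or its size factors (-0.10 each) and with only the groups compared fitted (-0.14). Under actinomycin D the RNAs of the centralspindlin pair parted, KIF23 at -0.79 and RACGAP1 at 0.49. PRC1, the bundler of the midzone, was called higher after POLR1A depletion at 0.42 and under actinomycin D at 0.44, and had no call after POLR2A depletion, at -0.06. It was called lower there without control replicate 1 (-0.16), without the count filter (-0.17) and on mitochondrial mRNAs (-0.35).

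The 5 genes of anaphase ubiquitination and separase counted 3 higher and 1 lower after POLR1A depletion, 1 higher and 3 lower after POLR2A depletion, and 3 higher and 0 lower under actinomycin D. CDC20, the activator of the anaphase-promoting complex, measured 189, 214 and 196 CPM in the controls, 156, 162 and 167 after POLR1A depletion, 131, 124 and 125 after POLR2A depletion and 197, 199 and 201 under actinomycin D. It was below the controls in both degron lines, at -0.30 (SE 0.05) and -0.66 (SE 0.05), and overlapped them under actinomycin D. PTTG1, securin, the inhibitor that the complex destroys, measured 46.1, 60.8 and 51.3 CPM in the controls, 74.7, 75.5 and 69.2 after POLR1A depletion, 84.8, 79.7 and 81.8 after POLR2A depletion and 83.8, 78.4 and 80 under actinomycin D. Every treated library was above every control, at 0.47 (SE 0.07), 0.63 (SE 0.08) and 0.61 (SE 0.07), the POLR2A value being the highest of any member in that comparison. ESPL1, separase, which securin inhibits, measured 76.1, 72.4 and 68.9 CPM in the controls, 79.4, 78.5 and 84.4 after POLR1A depletion, 49.9, 51.2 and 46.2 after POLR2A depletion and 77.7, 84.4 and 78.4 under actinomycin D. It was below the controls after POLR2A depletion, at -0.56 (SE 0.06), so after POLR2A depletion securin RNA rose while separase RNA fell. Its calls of 0.16 after POLR1A depletion and 0.15 under actinomycin D were not stable: the first was lost without control replicate 2 (0.17) or 3 (0.13) and without POLR1A replicate 1 (0.18) or 3 (0.13), and the second without control replicate 3 (0.12) or actinomycin D replicate 2 (0.12).

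UBE2S, the ubiquitin-conjugating enzyme that extends chains on substrates of the complex, measured 130.4, 111 and 95 CPM in the controls, 170.3, 189 and 193 after POLR1A depletion, 156, 126 and 132 after POLR2A depletion and 136, 142 and 183 under actinomycin D. Its POLR1A libraries were above every control, at 0.72 (SE 0.15), and its call of 0.46 under actinomycin D was lost without control replicate 2 (0.47) or 3 (0.37) or without actinomycin D replicate 3 (0.32). After POLR2A depletion UBE2S had no call, at 0.31. It was called higher there when summed with its close copies (0.40), on library totals (0.42) and with the DESeq2 Wald test (0.35). These values are uncertain, because the pseudogene UBE2SP2 holds 61.5% as many counts as UBE2S and RPL28 overlaps the gene on the opposite strand. UBE2C, which starts those chains, was called lower after POLR2A depletion, at -0.48, and had no call under actinomycin D, at 0.13. It was called higher there without control replicate 2 (0.19), with DESeq2 or its size factors (0.17 each), without the count filter (0.22) and on mitochondrial mRNAs (1.05).

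FOXM1, the transcription factor that activates many of these genes in G2, measured 131, 143 and 126 CPM in the controls, 169, 163 and 171 after POLR1A depletion, 129.8, 118 and 123 after POLR2A depletion and 177, 189 and 186 under actinomycin D. It was above every control after POLR1A depletion, at 0.33 (SE 0.05), and under actinomycin D, at 0.47 (SE 0.05). After POLR2A depletion it had no call (-0.11, adjusted p = 0.0898), and was called lower without control replicate 1 (-0.14), control replicate 3 (-0.17) or POLR2A replicate 1 (-0.16). MYBL2, the B-MYB factor that works with MuvB before FOXM1, measured 112, 123 and 114 CPM in the controls, 74.6, 82.6 and 80.8 after POLR1A depletion, 103, 97.6 and 105 after POLR2A depletion and 128, 126 and 126 under actinomycin D. It had the lowest value of any member after POLR1A depletion, at -0.56 (SE 0.06) (edgeR adjusted p = 3.31e-08), a smaller decrease after POLR2A depletion, at -0.20 (SE 0.06), and no call under actinomycin D, at 0.12. It was called higher there without control replicate 2 (0.18), with DESeq2 or its size factors (0.16 each), without the count filter (0.21) and on mitochondrial mRNAs (1.04). On library totals MYBL2 lost its POLR2A call, at -0.08. MKI67, the Ki-67 protein that coats mitotic chromosomes and marks cycling cells, measured 866, 969.7 and 1013 CPM in the controls, 856, 872 and 946 after POLR1A depletion, 812, 692 and 775 after POLR2A depletion and 785, 893 and 775 under actinomycin D. It was below the controls after POLR2A depletion, at -0.32 (SE 0.07). The actinomycin D libraries overlapped the controls, and the call of -0.22 was lost without control replicate 2 (-0.19) or 3 (-0.16) and without actinomycin D replicate 1 (-0.17) or 3 (-0.17).

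The depletions were also compared with each other, in the same fit over all 12 libraries. After POLR1A depletion 48 of 54 members were called higher than after POLR2A depletion and 2 lower, against 29.1% and 33.2% of all genes, and 54.6% and 20.9% of the genes in the members' level range. The members' median log2 difference was 0.44, beside -0.08 over all genes and 0.25 over the genes in range. The widest differences were those of TTK at 1.40 (SE 0.08), KIF20B at 1.35 (SE 0.08), NDC80 at 1.25 (SE 0.09), BUB1B at 1.18 (SE 0.06) and CDC25C at 1.14 (SE 0.10). MAD2L1 and MYBL2 were the 2 called lower, at -0.40 (SE 0.06) and -0.36 (SE 0.06). SPC24, PTTG1, BIRC5 and KIF22 had no call, although PTTG1 was called lower, at -0.17, when only the libraries of those depletions were fitted. SPC24, PTTG1 and BIRC5 were called lower on library totals (-0.26, -0.25 and -0.14) and with the DESeq2 Wald test (-0.26, -0.24 and -0.13). On mitochondrial mRNAs SPC24, PTTG1, BIRC5 and KIF22 were called higher, at 0.47, 0.48, 0.59 and 0.72. Scaled to library totals the counts were 45 higher and 5 lower.

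**Figure D5:**
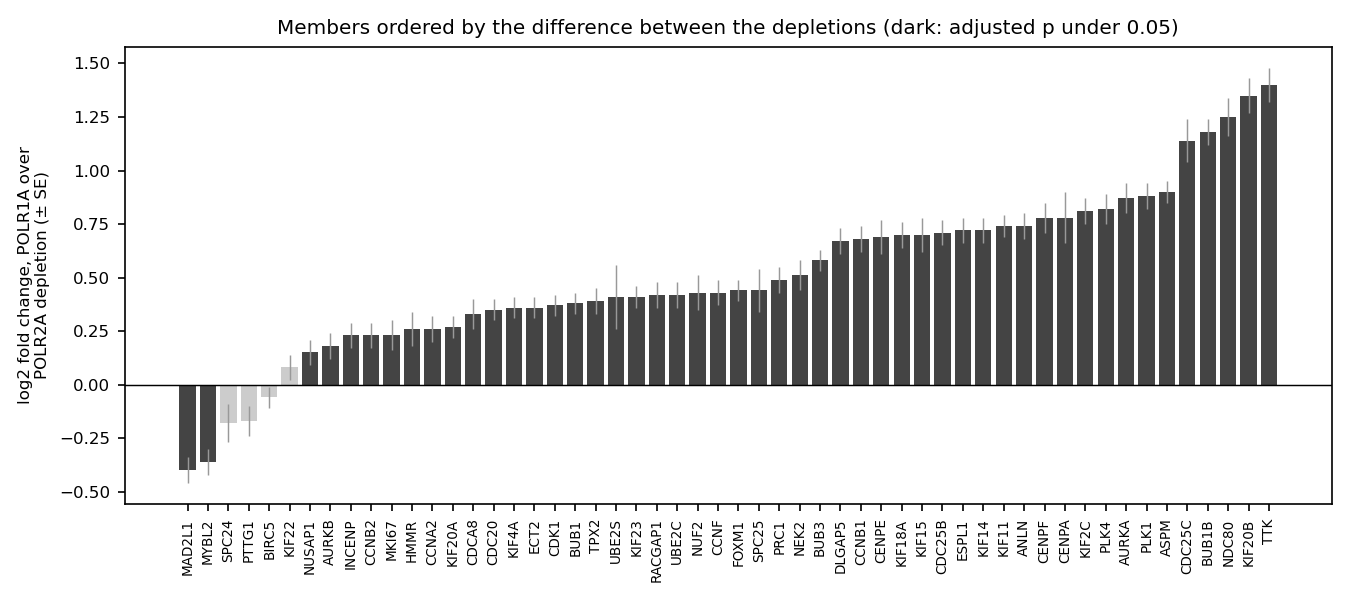
Log2 fold change of each member (x axis, ordered by value) between POLR1A and POLR2A depletion (y axis, bars from 0, ± SE, TMM scaling); dark bars have an adjusted p under 0.05. All but 5 bars lie above 0, from KIF22 at 0.08 to TTK at 1.40, and MAD2L1 and MYBL2 are the dark bars below it.

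Actinomycin D against POLR2A depletion gave 38 members called higher and 4 lower, beside 31.1% and 39.8% of all genes and 61.9% and 21.1% of those in the level range. The 4 called lower were CCNF at -2.10 (SE 0.07), KIF18A at -0.31 (SE 0.06), CDCA8 at -0.30 (SE 0.07) and KIF23 at -0.17 (SE 0.05). The KIF23 call was lost without POLR2A replicate 1 (-0.14) or 3 (-0.10) and without actinomycin D replicate 1 (-0.14) or 3 (-0.14). On library totals the split was 30 higher and 13 lower, and on mitochondrial mRNAs 53 higher and 1 lower. BUB1B had the highest value in the other direction, at 1.43 (SE 0.06). Actinomycin D against POLR1A depletion gave 18 higher and 20 lower, beside 24.4% and 31.8% of all genes and 42.3% and 37.8% of those in the level range, with a members' median of -0.04. Here CCNF was lower at -2.53 (SE 0.07), NDC80 at -1.46 (SE 0.09), KIF18A at -1.02 (SE 0.06), AURKA at -0.87 (SE 0.07) and ASPM at -0.81 (SE 0.05). MAD2L1 and MYBL2 were higher, at 0.72 (SE 0.06) and 0.68 (SE 0.05). This last split depends on the reference, with 22 higher and 17 lower on DESeq2 size factors, 8 higher and 31 lower on library totals, and 35 higher and 3 lower on mitochondrial mRNAs.

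By group mean, 35 of the 54 members were lowest after POLR2A depletion, 10 in the controls, 7 under actinomycin D and 2 after POLR1A depletion. The highest mean fell under actinomycin D for 22 members, after POLR1A depletion for 19, in the controls for 12 and after POLR2A depletion for 1. The same counts were not made over all genes. Of the genes in the members' level range, 52.4% were called lower than the controls after POLR2A depletion. Gene length was set beside these changes as a description. Across members, Spearman's rho between gene span and log2 fold change was 0.27 after POLR1A depletion, -0.05 after POLR2A depletion and 0.02 under actinomycin D, over 54 genes that share the same libraries. The same rho over 8531 protein-coding genes in the level range was 0.15, -0.17 and -0.04. For exonic length the members' values were 0.04, -0.18 and -0.17. The 26 members with both promoter elements in a window had median changes of 0.10, -0.31 and 0.15 in the POLR1A, POLR2A and actinomycin D comparisons, and the other 20 had 0.20, -0.32 and 0.10.

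Other genes of the pathway were read from 5 lists. Over all genes tested, 20.6% were called higher and 18.6% lower after POLR1A depletion, and 33.2% and 28.2% after POLR2A depletion. Under actinomycin D the shares were 24.9% and 28.5%. Genes in the members' level range had 35.7% and 31.1%, 22.3% and 52.4%, and 46.3% and 34.3% in that order. Neither these lists nor the marker lists below were tested against these shares. Brakes on mitotic entry, 10 genes, counted 3 higher and 4 lower after POLR1A depletion, 3 and 5 after POLR2A depletion, and 3 and 5 under actinomycin D. CDKN1A, the p53 target p21 that inhibits CDKs, measured 74.7, 86.6 and 77.1 CPM in the controls, 833, 829 and 843 after POLR1A depletion, 215, 213 and 218 after POLR2A depletion and 109, 100.2 and 113 under actinomycin D. It was the highest of the list after POLR1A depletion, at 3.39 (SE 0.06), and under actinomycin D, at 0.43 (SE 0.06). BTG2, an antiproliferative p53 target, was the highest after POLR2A depletion, at 2.77 (SE 0.08). WEE1, the kinase that inhibits CDK1, measured 83.7, 86.6 and 86.9 CPM in the controls, 49.2, 46.1 and 50.8 after POLR1A depletion, 50.5, 51.5 and 56.2 after POLR2A depletion and 13.7, 17.3 and 16.4 under actinomycin D. All its treated libraries were below the controls, at -0.82 after POLR1A depletion, the lowest of the list there, and at -2.43 (SE 0.08) under actinomycin D, again the lowest. CHEK1, the checkpoint kinase, was the lowest after POLR2A depletion, at -1.43 (SE 0.06). The list held moves in both directions in each treatment.

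The 16 subunits and regulators of the anaphase-promoting complex counted 3 higher and 5 lower after POLR1A depletion, 3 and 8 after POLR2A depletion, and 9 and 4 under actinomycin D. FBXO5, EMI1, which inhibits the complex before mitosis, measured 61.5, 60.8 and 58.5 CPM in the controls, 36, 28.6 and 32.6 after POLR1A depletion, 55, 52.7 and 58.6 after POLR2A depletion and 5.61, 4.78 and 6.34 under actinomycin D. It was far below the controls under actinomycin D, at -3.44 (SE 0.10), and below them after POLR1A depletion, at -0.90 (SE 0.08). CDC27, a core subunit, was the highest of the list after POLR1A depletion, at 0.71, and after POLR2A depletion the extremes were ANAPC13 at -1.02 and ANAPC2 at 0.46. Of 8 condensin subunits, which compact mitotic chromosomes, 5 were called higher and 1 lower after POLR1A depletion, 1 and 4 after POLR2A depletion, and 6 and 0 under actinomycin D. NCAPD2 measured 280.5, 296 and 279.5 CPM in the controls, 394, 394 and 395 after POLR1A depletion, 308, 296 and 299 after POLR2A depletion and 491, 491 and 482 under actinomycin D and was the highest of the list after POLR1A depletion and under actinomycin D, at 0.47 (SE 0.05) and 0.77 (SE 0.05). NCAPH measured 78.6, 84 and 81 CPM in the controls, 71.5, 66.6 and 67 after POLR1A depletion, 30.9, 28.7 and 32.7 after POLR2A depletion and 86.9, 78.2 and 82.7 under actinomycin D. Its POLR2A libraries stood far below all others, at -1.41 (SE 0.07), so subunits of the same ring differed.

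The 19 inner kinetochore and KMN genes, the platform on which the NDC80 complex sits, counted 5 higher and 7 lower after POLR1A depletion, 4 and 6 after POLR2A depletion, and 7 and 6 under actinomycin D. MIS12 measured 24.9, 22.4 and 21.5 CPM in the controls, 21.4, 18.1 and 20.7 after POLR1A depletion, 20.7, 19.7 and 21.2 after POLR2A depletion and 7.06, 5.69 and 6.67 under actinomycin D, and its actinomycin D libraries were all below the rest, at -1.83 (SE 0.11). CENPT, which links the inner plate to NDC80, was the highest of the list after POLR1A depletion, at 0.95 (SE 0.07). The 11 MuvB and DREAM subunits, which include the reader of the CHR, counted 2 higher and 4 lower after POLR1A depletion, 2 and 6 after POLR2A depletion, and 5 and 5 under actinomycin D. E2F4, the DREAM partner that binds E2F sites, was the lowest of the list after POLR1A depletion and after POLR2A depletion, at -0.56 (SE 0.06) and -1.07 (SE 0.06). LIN37 was the highest after POLR1A depletion, at 1.11 (SE 0.20), from 3.83, 3.36 and 4.21 CPM in the controls, and the lowest under actinomycin D, at -1.11 (SE 0.22).

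The epithelial origin of the line was checked with marker genes. Marker sums are over all 10 genes of a list, scaled to library totals without TMM. Epithelial markers, 9 of 10 of them tested, summed to 3574 to 3782 CPM in the controls, 1973 to 2075 after POLR1A depletion, 2669 to 2677 after POLR2A depletion and 2937 to 3155 under actinomycin D. Of the 9, 1 was called higher and 7 lower after POLR1A depletion, 2 and 5 after POLR2A depletion, and 2 and 3 under actinomycin D. LGR5 was at 0 in every control and measured 18.8, 21.7 and 21.1 CPM after POLR2A depletion. Mesenchymal markers, 5 of 10 tested, summed to 44.4 to 50.4 CPM in the controls, 63.7 to 66.3 after POLR1A depletion, 54.1 to 59.2 after POLR2A depletion and 40.8 to 45.2 under actinomycin D, with LUM at 0 counts. Of these 5, 3 were called higher and 1 lower after POLR1A depletion, 4 and 1 after POLR2A depletion, and 3 and 1 under actinomycin D. VIM, an intermediate filament gene, rose from 1.09, 1.08 and 0.876 CPM in the controls to 5.5, 5.14 and 4.47 after POLR1A depletion. Blood cell markers, 6 of 10 tested, summed to 13.1 to 13.8 CPM in the controls, 8.12 to 9.77 after POLR1A depletion, 16.1 to 23.2 after POLR2A depletion and 11 to 13.3 under actinomycin D. Of these 6, 0 were called higher and 1 lower after POLR1A depletion, 3 and 1 after POLR2A depletion, and 0 and 0 under actinomycin D. The 3 called higher were PTPRC, LYZ and CD14, and CD14 was at 0 in every control and measured 3.35, 3.38 and 4.73 CPM after POLR2A depletion. The part of these markers in the results above was not tested.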

How the data were processed

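Rows were estimated counts per Ensembl gene in 12 libraries of rRNA-depleted, stranded total RNA, as deposited by the authors, 76.1% of them whole. The submitters' processing notes name Trim Galore 0.6.10, STAR, RSEM 1.3.3, HTSeq 2.0.2, SAMtools 1.6 and GRCh38, with no role for each. Neither the authors' annotation release nor their strand setting is stated in these sources. Estimated counts were rounded to whole numbers, filtered with filterByExpr, scaled by TMM and fitted over all 12 libraries with edgeR 4.0.16 (robust quasi-likelihood test, R 4.3.3), giving 6 comparisons among 4 groups with Benjamini-Hochberg adjustment over 23593 genes and a threshold of 0.05. SEs were derived from the fold change and its F statistic. The scripts were tested on simulated counts in which few genes changed, evenly up and down. Such counts cannot test the scaling where many genes change, as here. Library totals of 11289272 to 27394059 set the counting precision.

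Groups came from the sample labels. The members and lists were chosen with earlier results of these data known, so the lists are no independent support. Values per library are given for CCNB1, CDK1, PLK1, AURKA, FOXM1 and MKI67 and, in each role and each comparison with the controls, for the called members with the highest and the lowest fold change, and other members by fold change. In the 5 pathway lists some of the called extremes are named, and others are left out. Gene models came from GENCODE 29 and promoter windows from RefSeq (GRCh38.p14).

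Alternatives were DESeq2 1.42.0, its size factors in edgeR, library totals, scaling to mitochondrial mRNAs, no filter on low counts, fitting only the groups compared, a replicate block and leaving out each library. Members summed with their close copies were added after seeing the data.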

Additional observations from a re-analysis of the deposited data

How the results depend on the processing

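Scaling decided most of what moved. On mitochondrial mRNAs, 0 members were lower after POLR1A depletion (median 0.49), 1 was higher after POLR2A depletion (median -0.61), and 45 were higher and 1 lower under actinomycin D (median 1.05). On that scale 0 members were lower in POLR1A against POLR2A depletion (median 1.09), 35 were higher and 3 lower in actinomycin D against POLR1A depletion (median 0.53), and 1 was lower in actinomycin D against POLR2A depletion (median 1.65). Sign changes on it among called members after POLR1A depletion were 0.04 for CCNA2, 0.15 for PLK4, 0.04 for BUB1B, 0.06 for MAD2L1, 0.07 for AURKB, 0.11 for KIF22, 0.14 for KIF23 and 0.05 for CDC20, and CDK1, which had no call, became 0.35. After POLR2A depletion they were -0.04 for NEK2, -0.02 for BIRC5, -0.15 for KIF4A and -0.15 for NUSAP1. Under actinomycin D they were 0.29 for CCNA2, 0.58 for CCNB1, 0.26 for PLK1, 0.07 for PLK4, 0.17 for AURKA, 0.64 for TTK, 0.60 for CENPA, 0.64 for CENPE, 0.12 for CDCA8, 0.04 for KIF18A, 0.36 for KIF20B, 0.61 for KIF22, 0.12 for KIF23, 0.72 for ASPM and 0.70 for MKI67. The 8 members that changed sign from a TMM call after POLR1A depletion, and the 4 after POLR2A depletion, had no call on that scale. Of those under actinomycin D, 7 had no call and 8 were called higher. On library totals the medians were -0.20 after POLR2A depletion and 0.02 under actinomycin D, 5 members were lower in POLR1A against POLR2A depletion (median 0.36), 8 were higher and 31 lower in actinomycin D against POLR1A depletion (median -0.20), and 13 were lower in actinomycin D against POLR2A depletion (median 0.20). Without the filter on low counts 3 members were higher after POLR2A depletion (median -0.42), and the medians were 0.23 under actinomycin D, 0.53 for POLR1A against POLR2A depletion and 0.07 for actinomycin D against POLR1A depletion. Against POLR2A depletion, actinomycin D then had 1 member lower (median 0.63). With DESeq2 size factors in edgeR 4 members were lower in POLR1A against POLR2A depletion (median 0.36), and with the DESeq2 Wald test 5 were (median 0.36), while both gave 0.03 as the median of actinomycin D against POLR1A depletion. That median was 0.02 with only those groups fitted. Apart from the scaling itself, the cause of these moves was not tested. Leaving out 1 library gave 4 to 7 members higher after POLR2A depletion with a median of -0.40 to -0.30, and a median of 0.40 to 0.50 for POLR1A against POLR2A depletion.

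Replicate numbers did not pair the samples, since same-numbered libraries had correlated deviations of -0.061 to 0.039. With a replicate block 24 members were higher and 10 lower after POLR1A depletion, 6 and 38 after POLR2A depletion, and 25 and 17 under actinomycin D. The block gave 47 and 2 for POLR1A against POLR2A depletion, 17 and 20 for actinomycin D against POLR1A depletion, and 38 and 4 against POLR2A depletion.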
